A study of Mus musculus with 6 samples.

Results

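Myeloid cells were followed through 39 genes of macrophages, antigen presentation and neutrophils in RNA of the mouse uterus at pregnancy day 4, 1600 h. The genes were chosen by name: 31 macrophage genes, 4 genes of the major histocompatibility complex (MHC) class II and 4 neutrophil genes, out of 56748 gene IDs in each table. The study compared 3 control libraries, whose genotype is labelled WT, with 3 libraries of a Zip10 conditional knockout (cKO) that the series describes as uterine. Zip10 is the zinc importer encoded by Slc39a10, and the series title places the question in progesterone responsiveness. The labels and design text used here name no Cre driver, deleted exons, strain or age. Nor do they say that each library came from its own animal, so a p-value reflects the spread of these samples alone, which may be technical.

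Macrophages are phagocytes that need signalling through the receptor CSF1R, which binds the growth factors CSF1 and IL-34. In the uterus they lie in the stroma and the muscle layer. They take up debris with scavenger receptors and lectins, bind antibody through Fc receptors, make the C1q subunits that start the classical complement cascade, and present peptides on MHC class II, which the invariant chain CD74 guards on its way to the surface. Neutrophils are short-lived granulocytes that carry the calcium- and zinc-binding proteins S100A8 and S100A9 in large amounts.

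Each library held 19643069 to 22809574 counts. Of the 39 genes, 36 were among the 16737 with enough counts to be tested; Timd4, S100a8 and S100a9 were not. Slc39a10 itself was at 54.6, 70.4 and 66.2 CPM (counts scaled to library depth, after TMM scaling) in controls 1, 2 and 3 and at 39.5, 72.5 and 79.8 CPM in cKO libraries 1, 2 and 3, a fold of 1.00 (95% interval 0.678 to 1.49). A gene total also counts reads outside a deleted part, so it does not check the genotype, and every direction below is that of the libraries labelled Zip10 cKO. Library cKO 1 stood apart from the rest, at -1.58 on axis 1 of a multidimensional scaling of the 6 libraries, where the other 5 lay between -0.02 and 0.77. The mitochondrial share was 3.43% in that library and between 4.50% and 4.84% elsewhere. The uterine genes Pgr, Esr1, Hoxa10, Hoxa11 and Hand2 were present in every library, at a summed 1138 to 1284 CPM in controls and 1008 to 1161 CPM in cKO libraries (median log2 fold change -0.16, 1 of 5 above 0).

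All 36 tested myeloid genes had a higher mean in the cKO libraries, with a median log2 fold change of 0.46, against 49.4% of all genes tested and a median of 0.00. By edgeR's quasi-likelihood test with Benjamini-Hochberg adjustment, 0 of the 36 were past a threshold of 0.05, as were 0% of all genes, while 1081 genes had an unadjusted p under 0.05. The adjusted p of the 36 genes ran from 0.747 to 0.956 in that test. DESeq2 called 38 genes (0.208%), none of them among the 39. Its lowest adjusted p among the members were 0.0765 for Mrc1, 0.12 for Csf1 and 0.146 for Siglec1, so the value varied with the method. At an unadjusted p under 0.05, 5 of the 36 were higher (13.9%, against 4.48% of all genes) and none was lower (1.98% of all genes): Csf1, Csf1r, Adgre1, Mrc1 and Siglec1. The 3 cKO libraries all lay above the 3 controls for 3 of the 36, which is 8.33% against 6.93% of all genes, a share near the background. In whole tissue, a difference in the number of cells and one in RNA per cell cannot be told apart.

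The size of the shift followed library cKO 1. It was the highest of the 6 libraries for 34 of the 36 genes (94.4%), where it was the highest for 24.6% of all genes tested. Cd163 and Clec10a were the exceptions, both highest in cKO 3. Control 2 was the lowest library for 24 of the 36 (66.7%, against 14.2% of all genes). This was not limited to myeloid genes: control 2 was also the lowest for 8 of 9 MHC class I genes and 5 of 6 smooth muscle genes. It was the lowest for 0 genes of the stromal, epithelial and endothelial lists. Without cKO 1, 31 of the 36 genes had a higher mean in the remaining cKO libraries (86.1%, against 48.9% of all genes), and the median log2 fold change was 0.17. Then 4 genes were higher at an unadjusted p under 0.05, where 2.71% of all genes were: Csf1, Mrc1, Cd163 and Siglec1. None was past the adjusted threshold (0.0117% of all genes), and the lowest adjusted p of the 36 was 0.989 in edgeR's test. The count at an unadjusted p under 0.05 varied with the library left out and with the model. It was 27 of 38 tested members without cKO 2 (5.66% of all genes), 3 of 36 without control 1 (2.39%) and 3 of 38 without control 2 (3.78%). It was 12 of 39 in DESeq2 (2.77%) and 13 of 36 after each library's trend on gene length was removed (3.66%). With the replicate number as a block it was 18 of 36 (5.33%), though the labels do not say that a number pairs libraries.

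**Figure D1:**
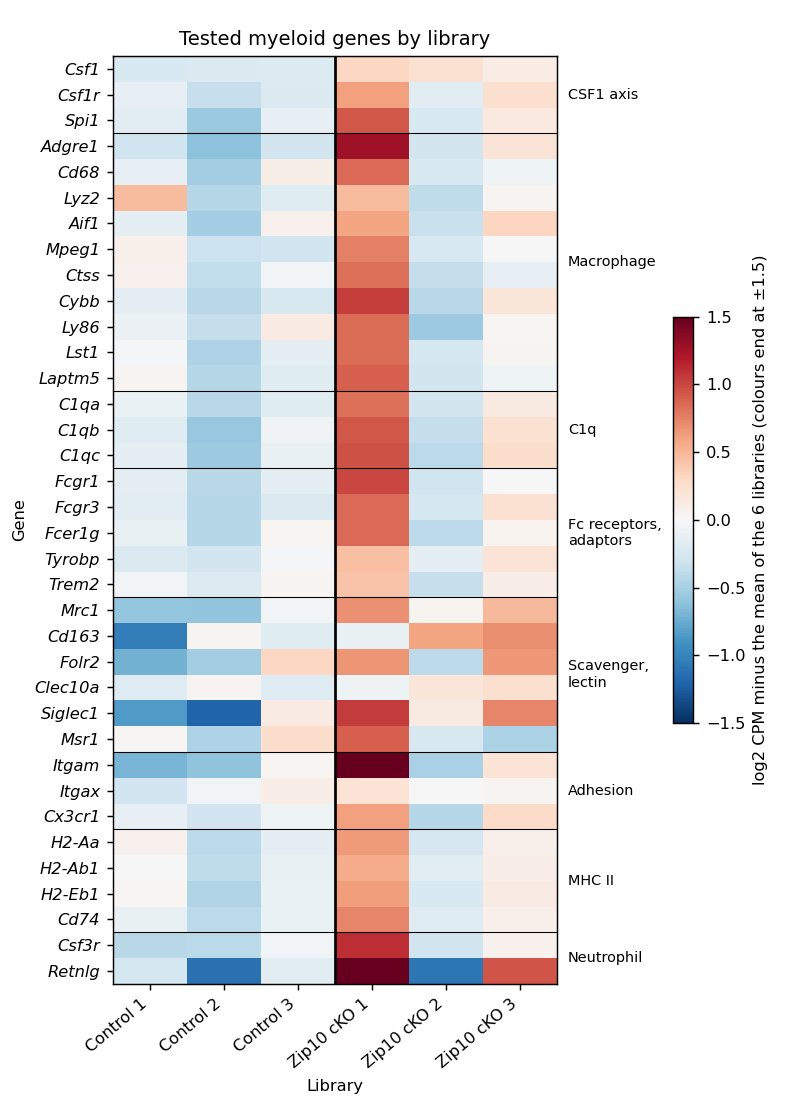
Levels of the 36 tested genes (rows, grouped by role) in the 6 libraries (columns), as log2 CPM minus the mean of the 6 libraries of that gene; red is above that mean, blue below, and the colours end at 1.5 in either direction. The cKO 1 column is the reddest for 34 of the 36 genes, and control 2 is the bluest for 24.

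The growth factor of macrophages gave the most even difference between the groups. Csf1, which encodes CSF1 and is made by epithelium and stroma in many tissues, was at 34.9, 35.3 and 35.3 CPM in controls 1, 2 and 3 and at 50.7, 47.9 and 44.2 CPM in cKO libraries 1, 2 and 3. The groups did not overlap, and each library of a group was close to the others. Its cKO mean was 1.35-fold the control mean, with a 95% interval from 1.16 to 1.58 (unadjusted p = 0.00159, adjusted p = 0.747, edgeR's quasi-likelihood test). Leaving out cKO 1 gave a fold of 1.31 (1.1 to 1.56).

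Csf1r, the receptor, was at 46.5, 39.97 and 43.5 CPM in controls and at 77.7, 45.6 and 59.8 CPM in cKO libraries 1 to 3. Library cKO 2 lay within the controls. The fold was 1.41 (95% interval 1.06 to 1.87) and 1.21 (0.971 to 1.52) without cKO 1. Spi1, which encodes PU.1, the transcription factor that myeloid cells depend on, followed the receptor more than the ligand, at 7.60, 5.83 and 7.84 CPM in controls and 16.4, 7.32 and 9.49 CPM in cKO libraries. Its fold of 1.56 (0.974 to 2.49) was 1.18 (0.845 to 1.65) without cKO 1.

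Other growth factor genes of the myeloid lineage were read from a list of 8. Among 7 tested, 4 had a log2 fold change above 0 and 3 below (median 0.25, or 0.10 without cKO 1), and none was at an unadjusted p under 0.05 (4.48% of all genes were higher by that measure). Il34, the second ligand of CSF1R, was at -0.17 ± 0.24 (log2 fold change ± SE). Csf2rb, the common beta receptor chain, was at 0.44 ± 0.20, its near-identical copy Csf2rb2 at 0.39 ± 0.23, and Flt3, a receptor of dendritic cell precursors, at 0.56 ± 0.34. Csf2rb and Csf2rb2 share reads, so their split is uncertain. Among 11 myeloid transcription factors all had a log2 fold change above 0 (median 0.35), as did 49.4% of all genes tested. At an unadjusted p under 0.05 in edgeR's test were 2 of them (18.2%, against 4.48% of all genes): Irf8, needed by monocytes and dendritic cells, at 0.35 ± 0.11, and Maf, a factor of resident macrophages that other cells also make, at 0.28 ± 0.11. Without cKO 1 the median of the 11 was 0.20, and 10 of them had a log2 fold change above 0.

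The 10 general macrophage genes were Adgre1, Cd68, Lyz2, Aif1, Mpeg1, Ctss, Cybb, Ly86, Lst1 and Laptm5. All had a higher mean in the cKO libraries (median log2 fold change 0.42). Adgre1 alone was at an unadjusted p under 0.05 in edgeR's test (10% of the list, against 4.48% of all genes higher by that measure). All 10 were highest in cKO 1, as were 24.6% of all genes. None had groups that did not overlap, where all cKO libraries lay above all controls for 6.93% of all genes. Adgre1, which encodes the macrophage surface protein F4/80, was at 21.2, 16.9 and 21.5 CPM in controls and at 62.5, 21.5 and 29.8 CPM in cKO libraries 1 to 3. The level in cKO 1 was 2.44 times the mean of the other 2 cKO libraries, and cKO 2 equalled the highest control to 3 digits. The fold over controls was 1.91 (95% interval 1.07 to 3.40), and 1.29 (0.972 to 1.71) without cKO 1.

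Cybb, the catalytic subunit of the phagocyte oxidase, was at 15.3, 12.8 and 14.5 CPM in controls and 34.98, 12.8 and 19.2 CPM in cKO libraries 1 to 3. Mpeg1, the pore-forming perforin-2 of phagocytes, was at 99.6, 75.9 and 77.7 CPM and at 160.4, 80.4 and 95.3 CPM. For both genes cKO 1 was far above every other library; cKO 2 lay within the controls for Mpeg1 and at their lower edge for Cybb. Without cKO 1 the folds of the 10 genes had a median log2 value of 0.03, with 7 above and 3 below 0. Lyz2, Ctss and Ly86, a lysozyme, a lysosomal protease and a partner of the receptor RP105, were the 3 below, at -0.16, -0.13 and -0.14.

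Lyz2, picked out after its values were seen, had the smallest log2 fold change of the 36. It stood at 255.7, 136.9 and 162.5 CPM in controls and at 257.3, 141.9 and 189.8 CPM in cKO libraries 1 to 3, so control 1 was as high as cKO 1. Cd68, a lysosomal glycoprotein, and Laptm5, a lysosomal membrane protein of blood cells, had folds of 1.34 and 1.37 over 6 libraries, and both had 1.00 without cKO 1. Aif1, an actin-binding protein also called IBA1, and Lst1, a small leukocyte membrane protein, had folds of 1.33 and 1.40 over 6 libraries and of 1.15 and 1.07 without cKO 1.

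**Figure D2:**
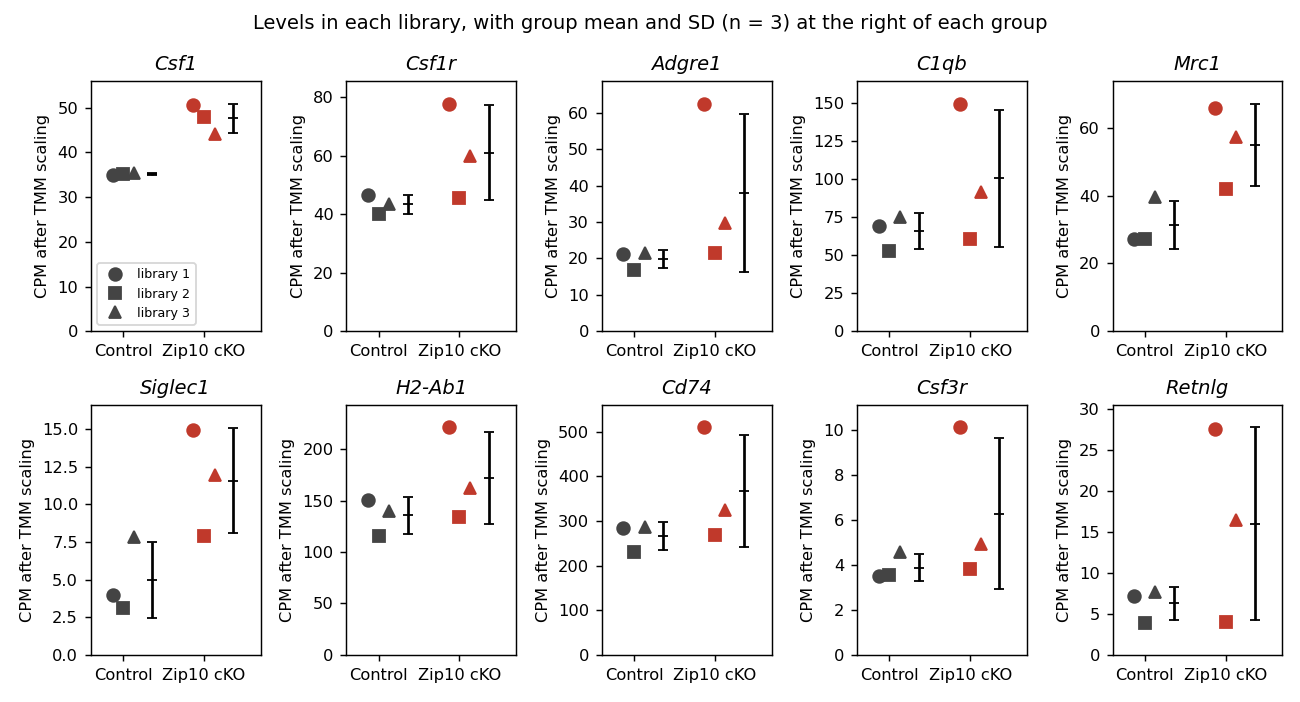
CPM after TMM scaling (linear axes from 0) of 10 genes in each library, with control libraries in grey and Zip10 cKO libraries in red, and the group mean and SD (n = 3) as a bar to the right of each group. Csf1, Mrc1 and Siglec1 have groups that do not overlap; in the other 7, cKO 1 is the highest library and cKO 2 lies within or next to the controls.

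The 3 chains of C1q, encoded side by side by C1qa, C1qb and C1qc, had nearly the same profile. C1qa was at 75.5, 60.7 and 71.6 CPM in controls and at 144.3, 67.2 and 89.3 CPM in cKO libraries 1 to 3. C1qb was at 69.0, 52.7 and 75.2 CPM and at 149.2, 60.7 and 91.1 CPM. C1qc was at 44.5, 33.7 and 45.5 CPM and at 95.4, 37.2 and 59.1 CPM. In all 3 the order of the cKO libraries was 1, 3, 2, control 2 was lowest, and cKO 2 lay within the controls. The folds were 1.45 (95% interval 0.960 to 2.18), 1.53 (0.941 to 2.48) and 1.55 (0.945 to 2.54), and without cKO 1 they were 1.13, 1.15 and 1.17.

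The 5 receptors and adaptors bind antibody or signal through shared adaptor chains. Fcgr3, a low-affinity IgG receptor, was at 10.5, 8.79 and 10.2 CPM in controls and at 21.2, 9.80 and 13.8 CPM in cKO libraries 1 to 3, with a fold of 1.52 (0.999 to 2.31). Tyrobp, the adaptor DAP12, was at 22.3, 21.5 and 25.5 CPM and at 35.5, 23.7 and 29.9 CPM, a fold of 1.28 (0.998 to 1.65). Fcgr1, the high-affinity IgG receptor, was at 8.395, 6.92 and 8.36 CPM and at 18.5, 7.55 and 9.29 CPM, a fold of 1.49 (0.897 to 2.49). Their groups overlapped through cKO 2. Without cKO 1 the folds were 1.20, 1.16 and 1.06. Fcer1g, the common gamma chain of Fc receptors, had folds of 1.34 and 1.00 with and without cKO 1, and Trem2, a lipid receptor that signals through DAP12, had 1.12 and 0.970. Fc receptor genes are close relatives, so their counts depend in part on how shared reads were split.

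All 10 genes in a list of partners of these receptors and of C1q had a log2 fold change above 0 (median 0.41), and 8 of 10 did without cKO 1 (median 0.16). The C1 proteases C1ra and C1s1, made mostly by stromal cells, were at 0.32 ± 0.12 and 0.24 ± 0.10 (log2 fold change ± SE) and both at an unadjusted p under 0.05 in edgeR's test (20% of the list, against 4.48% of all genes). Fcgr2b, the inhibitory IgG receptor, was at 0.63 ± 0.30.

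For the scavenger and lectin receptors less of the fold change rested on cKO 1, though this contrast with the other groups was not tested. Of 7 genes, 6 were tested, and the median log2 fold change was 0.69, or 0.56 without cKO 1. Mrc1, the mannose receptor CD206, was at 27.3, 27.2 and 39.6 CPM in controls and at 65.7, 41.8 and 57.4 CPM in cKO libraries 1 to 3. All cKO libraries were above all controls, though cKO 2 was close to control 3. The fold was 1.75 (95% interval 1.27 to 2.42; unadjusted p = 0.00384 and adjusted p = 0.747 in edgeR's test), and 1.58 (1.14 to 2.18) without cKO 1.

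Siglec1, the sialic acid receptor CD169, was at 4.00, 3.11 and 7.84 CPM in controls and at 14.9, 7.91 and 11.9 CPM in cKO libraries. The groups did not overlap but nearly touched, at control 3 and cKO 2. Its fold of 2.32 (1.29 to 4.18) was 1.99 (1.07 to 3.69) without cKO 1. Cd163, the haemoglobin scavenger receptor, was at 0.703, 1.48 and 1.28 CPM in controls and at 1.33, 2.16 and 2.34 CPM in cKO libraries 1 to 3. Here cKO 1 was the lowest of its group and lay among the controls. Its fold was 1.69 (0.935 to 3.04) over 6 libraries and 1.95 (1.09 to 3.48) without cKO 1, from 16 to 47 counts a library.

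Clec10a, a galactose-binding lectin, had folds of 1.17 and 1.25 with and without cKO 1, and Folr2, a folate receptor of resident macrophages, 1.54 and 1.37. Msr1, scavenger receptor A, had 1.16 and 0.796. Timd4, a receptor for dying cells on resident macrophages, had 2 to 5 counts in 5 libraries and 17 in cKO 1, and was not tested. Without cKO 1, both remaining cKO libraries lay above all controls for 5 of the 36 genes (13.9%, against 10.4% of all genes): Csf1, Mrc1, Siglec1, Cd163 and Clec10a. Of these, 4 are scavenger or lectin receptors, and the share over all members was near the background.

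**Figure D3:**
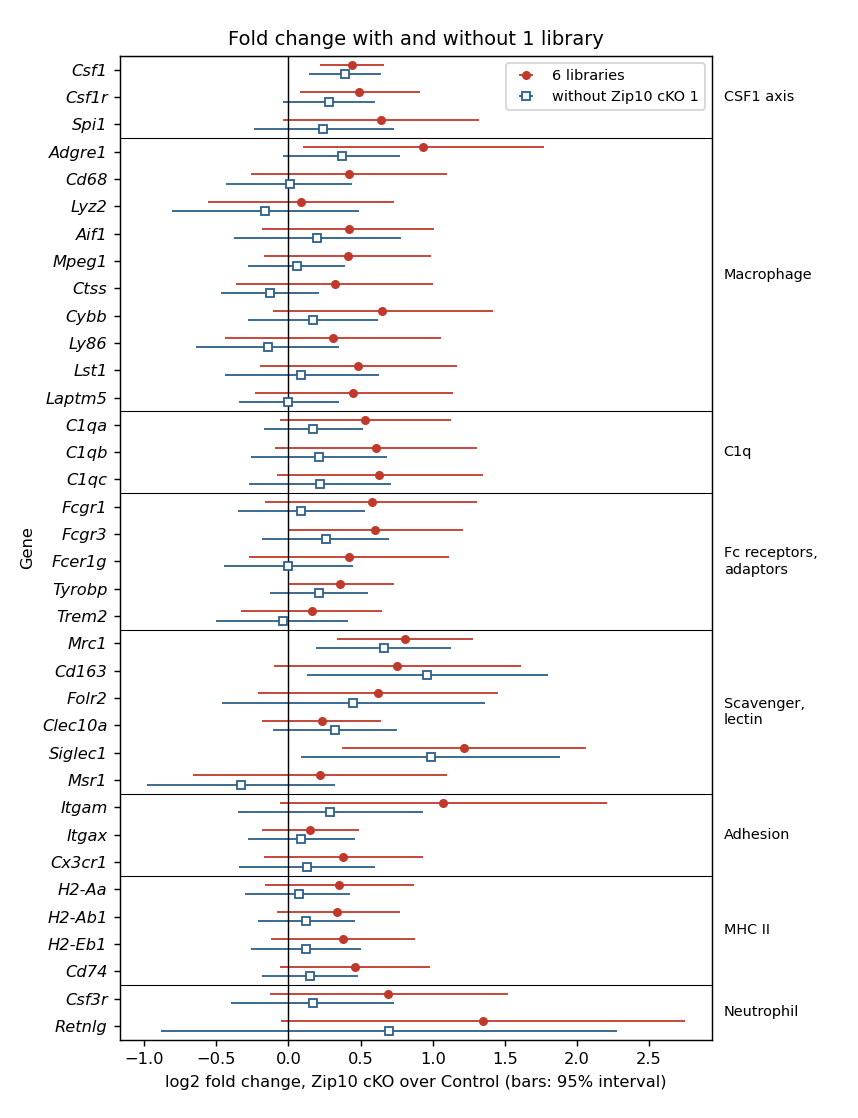
log2 fold change of Zip10 cKO over control, with its 95% interval from edgeR's quasi-likelihood fit, for the 36 tested genes over 6 libraries (red circles) and without cKO 1 (blue squares). Removing the library moved 34 of the 36 estimates toward lower values; Csf1, Mrc1 and Siglec1 kept intervals above 0, that of Cd163 was above 0 without cKO 1 alone, and those of Csf1r and Adgre1 with all 6 libraries alone.

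Among the integrins and the fractalkine receptor, Itgam spread most, with an SE of 0.49 on the log2 scale against 0.15 for Itgax and 0.24 for Cx3cr1. Itgam, the integrin chain CD11b of myeloid cells, was at 12.8, 13.7 and 21.2 CPM in controls and at 61.3, 14.8 and 24.1 CPM in cKO libraries 1 to 3. The level in cKO 1 was 3.15 times the mean of cKO 2 and 3, and the fold of 2.10 had an interval from 0.957 to 4.62. Itgax, the chain CD11c of dendritic cells and some macrophages, was at 12.5, 14.8 and 16.3 CPM and at 17.6, 15.3 and 15.7 CPM, a fold of 1.11 (0.881 to 1.41). Cx3cr1, the fractalkine receptor, was at 19.3, 17.4 and 20.2 CPM and at 32.5, 15.7 and 25.9 CPM, a fold of 1.3 (0.890 to 1.90). Without cKO 1 these folds were 1.22, 1.06 and 1.09.

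PU.1 binds purine-rich sites with the core GAGGAA, and promoter sequences were searched for it (GAGGAA or TTCCTC) on both strands, a motif chosen after the data were seen. RefSeq promoters (GRCm38.p6, 250 bases before to 50 after the start) were matched by symbol for 28 of the 39 genes, with 30 promoters. The core was present in 15 of these 30 (50%), which belong to 14 genes because both overlapping promoters of Fcgr3 hold the same site, and in 28.3% of all 32851 promoters of the table. The bases upstream of Mrc1 and Itgam are shown as examples that hold the core. The groups of Mrc1 did not overlap, and Itgam differed most between cKO 1 and the other cKO libraries among the tested members. Csf1 and Siglec1, whose groups did not overlap either, are not among the 14 genes, for lack of a promoter in the table or of the core. No link between the core and a difference is read. The 200 bases upstream of Mrc1 and Itgam hold the core 3 times and 2 times, and capitals mark it on either strand. Their windows are chr2:14229214-14229413 (plus strand) and chr7:128062440-128062639 (plus strand).
Mrc1: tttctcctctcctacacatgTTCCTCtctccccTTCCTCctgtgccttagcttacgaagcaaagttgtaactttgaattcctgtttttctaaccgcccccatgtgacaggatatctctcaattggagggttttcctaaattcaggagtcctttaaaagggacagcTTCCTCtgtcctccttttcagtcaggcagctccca
Itgam: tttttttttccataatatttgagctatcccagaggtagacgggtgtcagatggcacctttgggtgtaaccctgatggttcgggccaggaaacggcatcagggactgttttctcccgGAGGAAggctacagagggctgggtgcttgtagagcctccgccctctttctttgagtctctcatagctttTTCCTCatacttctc
The letters describe the sequence only, and binding was not measured.

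The MHC class II genes were among the most abundant members and had nearly one profile. In TPM, which divides by gene length, Cd74 was at 334.8 ± 36.7 in controls (SD, n = 3), H2-Ab1 at 192.4 ± 18.5, H2-Aa at 182.6 ± 20.6 and H2-Eb1 at 124.6 ± 18.5, against 9.31 ± 2.08 for Adgre1. H2-Aa, the alpha chain of I-A, was at 156.8, 114.1 and 135.9 CPM in controls and at 234.2, 126.2 and 158.5 CPM in cKO libraries 1 to 3. H2-Ab1, its beta chain, was at 150.9, 116.0 and 140.0 CPM and at 221.1, 133.6 and 162.0 CPM. Both were highest in cKO 1 and lowest in control 2.

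H2-Eb1, the beta chain of I-E, was at 104.7, 74.7 and 95.3 CPM in controls and at 157.5, 87.4 and 111.6 CPM in cKO libraries 1 to 3. Cd74 was at 283.7, 231.3 and 286.1 CPM and at 509.8, 269.5 and 324.1 CPM. In all 4 genes the order of libraries within each group was the same except between controls 1 and 3 in Cd74, and cKO 2 lay within the controls. The folds were 1.28 (95% interval 0.893 to 1.82) for H2-Aa, 1.27 (0.943 to 1.71) for H2-Ab1, 1.3 (0.918 to 1.83) for H2-Eb1 and 1.38 (0.961 to 1.97) for Cd74. Without cKO 1 they were 1.05, 1.09, 1.09 and 1.11, and their median log2 fold change was 0.12 in place of 0.36.

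Class II promoters carry a module of conserved boxes, of which the Y box is bound by NF-Y through an inverted CCAAT motif. The planned search was for CCAAT, and the extended letters CTGATTGG were added to it. They were found on the coding strand in 2 of the 30 member promoters (6.67%), those of H2-Aa and H2-Eb1. On either strand (CCAATCAG on the other) they were in 4.1% of all promoters in the table. H2-Ab1 and Cd74 gave no match to either form, for lack of a promoter in the table or of the letters. CCAAT or its complement alone, which is part of the longer motif, was in 13 of the 30 (43.3%) and in 37.4% of all. The 120 bases upstream of both starts are shown because the box lies at nearly the same distance, starting 51 bases before the start of H2-Aa and 62 before that of H2-Eb1; capitals mark it. The windows are chr17:34287824-34287943 (minus strand) and chr17:34305747-34305866 (plus strand) of GRCm38.p6.
H2-Aa: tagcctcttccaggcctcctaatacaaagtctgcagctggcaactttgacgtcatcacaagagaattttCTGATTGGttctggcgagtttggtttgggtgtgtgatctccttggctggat
H2-Eb1: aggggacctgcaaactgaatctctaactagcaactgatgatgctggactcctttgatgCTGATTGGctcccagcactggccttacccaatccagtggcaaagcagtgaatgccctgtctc
A match describes the sequence and is not a measured site.

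The genes that control class II and load its peptides had a smaller median difference, though the contrast was not tested. Among 13 tested, 9 had a log2 fold change above 0 and 4 below, the median was 0.19, and none was at an unadjusted p under 0.05 (4.48% of all genes were higher by that measure). Ciita, the coactivator that switches class II genes on, was at 0.41 ± 0.20 (log2 fold change ± SE), and Marchf1, a ligase that removes class II from the surface, at 0.61 ± 0.38. Rfxap, a subunit of the factor that binds the X box of these promoters, was at -0.19 ± 0.14. Without cKO 1 the median was 0.06.

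MHC class I, which nearly all cells carry, did not share this direction: 3 of 9 genes had a log2 fold change above 0, and the median was -0.01, or -0.14 with 2 of 9 above 0 without cKO 1. Psmb8 and Psmb9, subunits of the immunoproteasome that cuts peptides for class I, were at -0.18 ± 0.15 and -0.10 ± 0.18. Nlrc5, the class I coactivator, was at 0.34 ± 0.27. The costimulatory list had 5 tested genes, 3 of them above 0, with a median of 0.25; without cKO 1 the median was on the other side of 0, at -0.09, with 2 of 5 above. Cd86 and Cd80, ligands of CD28, were at 0.44 ± 0.34 and 0.53 ± 0.44, and Icosl at 0.25 ± 0.15. The difference between class I and class II was not tested.

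**Figure D4:**
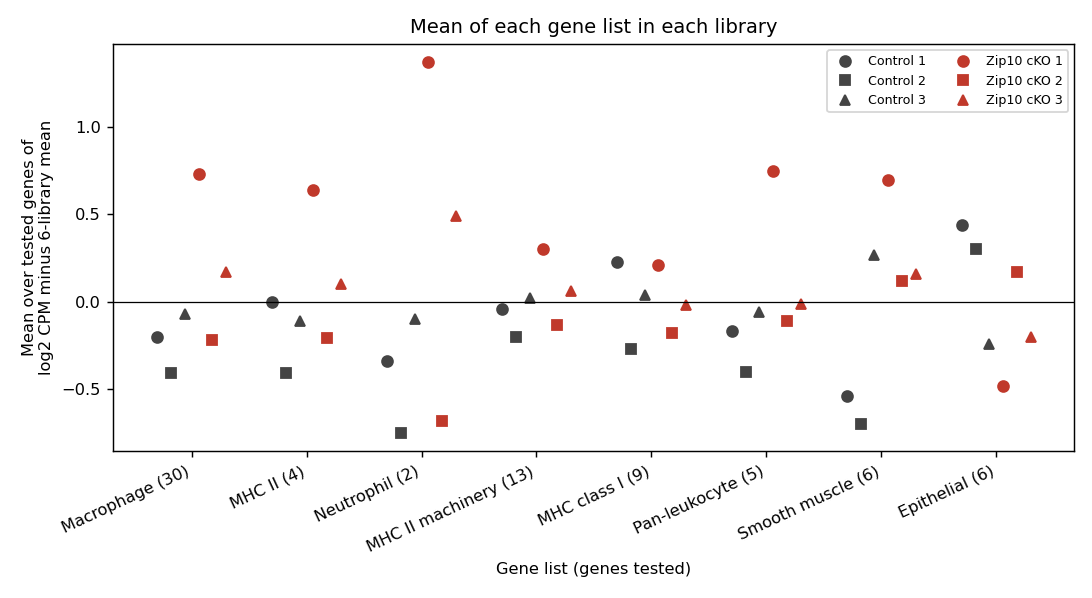
Mean over the tested genes of a list of log2 CPM minus the mean of the 6 libraries, for 8 lists (number of genes tested in brackets), with control libraries in grey and Zip10 cKO libraries in red; shapes mark libraries 1 to 3. Macrophage means were 0.73, -0.22 and 0.17 in cKO libraries 1 to 3 and -0.20, -0.41 and -0.07 in controls, so cKO 2 lay among the controls, as it did for class II.

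The neutrophil genes split between those near 0 and those that were measured. S100a8 was counted 14, 6 and 5 times in the controls and 17, 7 and 4 times in the cKO libraries, which is 0.199 to 0.808 CPM over all 6. S100a9 had 15, 8 and 6 counts and 24, 2 and 6, or 0.0920 to 1.14 CPM. The floor that 3 counts set lay between 0.132 and 0.149 CPM a library, so both genes were within a few counts of it in most libraries, and neither was tested. Elane, the elastase of neutrophil granules, had 0 counts in every library, Camp and Ngp had at most 1, Mmp8 at most 5, Ly6g 0 to 7 and Mpo 3 to 14. Defining granule transcripts were thus at or near 0 in all 6 libraries, and the label neutrophil rests here on Csf3r and Retnlg, neither of which is confined to that cell.

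Csf3r, the G-CSF receptor of neutrophils and monocytes, was at 3.52, 3.56 and 4.58 CPM in controls and at 10.1, 3.82 and 4.92 CPM in cKO libraries 1 to 3. Only cKO 1 was far from the rest, and the fold of 1.62 (95% interval 0.913 to 2.86) was 1.12 (0.760 to 1.66) without it. Retnlg, a small secreted resistin-like protein, was at 7.16, 3.95 and 7.70 CPM in controls and at 27.5, 4.05 and 16.4 CPM in cKO libraries. It had the largest SE of the tested members (0.60 on the log2 scale): cKO 1 and 3 lay above all controls and cKO 2 next to the lowest. Its fold was 2.55 (0.964 to 6.72) and 1.62 (0.543 to 4.86) without cKO 1. The median log2 fold change of these 2 genes was 1.02 over 6 libraries and 0.43 without cKO 1. Without control 2 or control 3, S100a8 and S100a9 also passed the filter, and the median over all 4 neutrophil genes was 0.37 and 0.38. Csf3r and Retnlg themselves were at 0.63 and 1.1 without control 2, and at 0.82 and 1.51 without control 3.

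In a list of 12 other neutrophil genes, Mmp9, a gelatinase that macrophages make too, was at 0.93 ± 0.24 (log2 fold change ± SE; unadjusted p = 0.00458, adjusted p = 0.747, edgeR's test) and at 0.92 without cKO 1. Fpr1, a receptor for bacterial peptides, was at 1.09 ± 0.49, and Il1b, which encodes a cytokine of monocytes and macrophages, at 1.01 ± 0.65 and 0.01 without cKO 1. The list had 5 tested genes, all above 0 (median log2 fold change 0.93); without cKO 1 the median was 0.40, with 4 of 5 above 0. The 12 stood at a summed 6.80 to 10.7 CPM in controls and 10.1 to 24.8 CPM in cKO libraries.

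Genes of other leukocytes were mostly at a higher mean in the cKO libraries too. The 5 genes of all leukocytes (Ptprc, Coro1a, Cd52, Cd53 and Itgb2) were all above 0 (median log2 fold change 0.48; without cKO 1, 0.15 with 4 of 5 above 0), were all highest in cKO 1, and summed to 146.1 to 178.8 CPM in controls and to 309.4, 179.7 and 188.9 CPM in cKO libraries 1 to 3. Monocyte genes (6 of 7 tested, all above 0) had a median of 0.32, and of 0.06 with 5 of 6 above 0 without cKO 1, with F13a1, the factor XIII chain of monocytes and resident macrophages, at 0.99 ± 0.38. Dendritic cell genes had a median of 0.18 with 5 of 7 above 0, which was -0.09 with 3 of 7 without cKO 1. Eosinophil and mast cell genes had a median of 0.66 with 6 of 7 tested genes above 0, though Epx was at 0 in all libraries. Without cKO 1 the median of this list was again 0.66 with 6 of 7 above 0, and cKO 1 was the highest library for 2 of the 7. The list summed to 8.13 to 10.7 CPM in controls and to 19.2, 7.73 and 20.96 CPM in cKO libraries 1 to 3. Siglecf, Cpa3 and Ccr3 of that list were at 2.01 ± 0.60, 1.18 ± 0.39 and 1.34 ± 0.52, each at an unadjusted p under 0.05 in edgeR's test (42.9% of those tested, against 4.48% of all genes). T and NK cell genes had a median of 0.71 with 8 of 9 above 0, and of -0.34 with 3 of 9 without cKO 1. The cytotoxic and NK genes Gzma, Klrb1c and Prf1 were at 0.76 ± 0.19, 1.35 ± 0.37 and 0.71 ± 0.22, each at an unadjusted p under 0.05 in edgeR's test (33.3% of the list, against 4.48% of all genes). They were named for the smallest p of the list, which split without cKO 1. Then 6 of 9 genes were below 0, and 3 were higher at an unadjusted p under 0.05 (2.71% of all genes). The 2 B cell genes tested had a median of 0.55, or 0.37 without cKO 1. The part of these cells in the member values was not tested.

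Tissue markers differed too. Smooth muscle genes (6 of 6 above 0, median log2 fold change 0.55, or 0.29 without cKO 1) summed to 5820 to 10860 CPM in controls and to 14340, 10360 and 10160 CPM in cKO libraries 1 to 3. Stromal genes had a median of 0.35 with 6 of 8 above 0, and 4 were higher at an unadjusted p under 0.05 (50%, against 4.48% of all genes). They summed to 9553 to 12520 CPM in controls and to 15550, 15400 and 13600 CPM in cKO libraries 1 to 3, and cKO 1 was the highest library for 3 of the 8. Without cKO 1 the stromal median was 0.33, with 4 higher at an unadjusted p under 0.05 (2.71% of all genes). Epithelial genes (0 of 6 above 0, median -0.34, or -0.19 without cKO 1) were lowest in cKO 1, at a summed 612.9 CPM against 775.6 to 1182 CPM in controls. Endothelial genes had a median of -0.13 with 0 of 5 above 0, and red blood cell genes one of 0.32 with 5 of 5. The part of tissue composition in the myeloid values was not tested.

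Member levels were also set against Ptprc (CD45) in the same library, a ratio chosen after the data were seen. Ptprc itself was at 43.7, 49.3 and 54.1 CPM in controls and 91.3, 58.1 and 62.8 CPM in cKO libraries 1 to 3, with all cKO libraries above all controls, so the ratio by its construction places few genes above the controls (0.251% of all) and many below (42.2%). It placed 0 of the 36 members above and 2 below, and nothing is read from either count. Those below were Trem2, at 0.196, 0.155 and 0.168 of Ptprc in controls and 0.130, 0.120 and 0.150 in cKO libraries, and Itgax, at 0.285, 0.301 and 0.302 and at 0.193, 0.263 and 0.250. Per unit of Ptprc, Adgre1 was at 0.484, 0.343 and 0.397 in controls and 0.685, 0.370 and 0.474 in cKO libraries, and Itgam at 0.293, 0.278 and 0.391 and at 0.672, 0.255 and 0.383. Both were highest in cKO 1 by this measure as well, as were Spi1, Cybb, C1qb, C1qc, Fcgr1, Csf3r and Retnlg. All other tested members were highest in another library. The MHC class II genes, Csf1r, C1qa, Cd68 and Lyz2 were among those highest in control 1. Mrc1 was at 0.624, 0.552 and 0.732 and at 0.719, 0.720 and 0.913, and Cd74 at 6.49, 4.70 and 5.29 and at 5.58, 4.64 and 5.16, with overlapping groups in both.

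**Figure D5:**
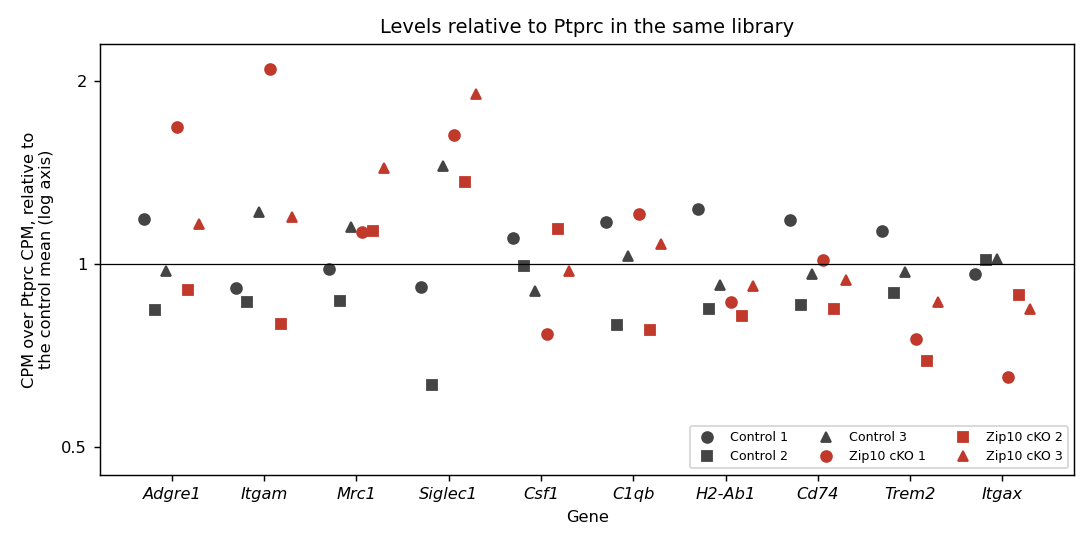
CPM of 10 members divided by the CPM of Ptprc in the same library, relative to the control mean of that ratio (log axis; 1 is the control mean), with controls in grey and Zip10 cKO libraries in red. Adgre1, Itgam and C1qb are highest in cKO 1, H2-Ab1, Cd74 and Trem2 in control 1, and Csf1, Mrc1, Siglec1 and Itgax in other libraries. Trem2 and Itgax are below the controls in all 3 cKO libraries, and the other 8 genes overlap between the groups. Ptprc is above all controls in every cKO library, so by construction the ratio places 42.2% of all genes below the controls and 0.251% above. Nothing is read from the position of Trem2 and Itgax.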

How the data were processed

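Uterine poly(A) RNA was sequenced in 3 control and 3 Zip10 cKO libraries, grouped by sample titles. Per the submitters' processing notes, the build was GRCm39 and the tools included RSEM 1.3.3, STAR 2.7.10a and fastp 0.23.2, with edgeR 3.38.4 in R 4.2.1; for annotation release and strand setting no source used here has an entry. The authors deposited RSEM expected counts, which split shared reads between genes, and TPM, scaled by effective length to a fixed sum, per the file headers. Of 56748 IDs, 52073 (91.8%) matched a GENCODE M21 symbol, used for names only; promoters were matched by symbol to RefSeq (GRCm38.p6).

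Expected counts were rounded, filtered by filterByExpr (minimum count 10, total 15), TMM-scaled and tested with edgeR 4.0.16's quasi-likelihood test (robust, two-sided) in R 4.3.3, Benjamini-Hochberg over 16737 genes, threshold 0.05. The SE came from the F statistic. Alternatives used DESeq2 1.42.0, limma 3.58.1, other filters, scalings and units, a loess on gene length, the replicate number as a block, and each library left out. Members, lists and tests were chosen with earlier results of these data known. Named were all 39 members, with values by library for fixed role groups and the 3 smallest p in the others, and up to 3 genes of each further list; other genes named were chosen after their values were seen. On simulated counts for these 16737 genes, 26%, 76%, 100% and 100% of genes changed 1.5-, 2-, 4- and 8-fold were recovered (50 each), with 10 false calls. The changed genes had a mean of at least 50 counts, and counts were drawn independently with no library set apart. These shares are therefore not the power of the real comparison, least of all for genes with fewer counts. No pair of libraries agreed within counting error (chi-square per degree of freedom at least 13.1). Figures used matplotlib 3.10.9.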

Additional observations from a re-analysis of the deposited data

How the results depend on the processing

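No member passed the adjusted threshold under any of the 15 alternatives. Over all genes the quasi-likelihood test called 0, DESeq2 called 38 (30 higher, 8 lower) and the fit with no filter on low counts 15 (12 higher, 3 lower); with 1 library left out the count ran from 0 to 2, the 2 being without cKO 1. Of 540 member values under alternatives, 533 kept their direction. The exceptions came from leaving out a library: without cKO 1, Lyz2 (-0.16), Ctss (-0.13), Ly86 (-0.14), Trem2 (-0.04) and Msr1 (-0.33) were below 0, as was Lyz2 without control 2 (-0.09) or control 3 (-0.01), and their highest log2 fold changes with a library left out were 0.38, 0.52, 0.57, 0.33 and 0.46. The cause was not tested. With each library left out, the median log2 fold change ran from 0.19 to 0.66 for macrophage genes, from 0.12 to 0.54 for class II and from 0.37 to 1.03 for neutrophil genes. It was lowest without cKO 1 in the first 2 lists. The neutrophil range mixes gene sets, because its lowest value was without control 2, where S100a8 and S100a9 also passed the filter. Csf3r and Retnlg were each lowest without cKO 1, at 0.17 and 0.70. The neutrophil median was 0.45 in DESeq2 and 0.44 without a filter, which also hold S100a8 and S100a9.

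With the replicate number as a block, 0 genes were called (1354 at an unadjusted p under 0.05, against 1081 without it; 18 of 36 members, against 5), and the medians were 0.43, 0.34 and 0.84 for macrophage, class II and neutrophil genes. Deviations of same-numbered libraries correlated at 0.09, 0.25 and 0.19 across genes. Library cKO 1 correlated best with control 3, at 0.12, and every other library with its own number. The labels tie no numbers together. Counts of 2 to 24 a library limit S100a8, S100a9 and Timd4.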
